A study of Oryza sativa with 12 samples.

Results

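The difference between 2 rice varieties, Bala and Azucena, in their response to arsenate was measured in roots on 12 Affymetrix Rice Genome arrays. For every probe set the variety difference was the arsenate response of Bala minus that of Azucena, on a log2 scale, within each of 3 independent experiments and then over all of them. All 12 arrays of the series entered it, 3 in each group. The groups were Bala roots with arsenate, Bala control roots without it, Azucena roots with arsenate and Azucena control roots without it. Seedlings of both varieties spent 7 days in hydroponics, with arsenate at 1 ppm (13.3 uM) or none. For each array 4 plants that shared a pot were pooled, 100 mg of their roots was extracted, and 5 ug of total RNA was labelled. The 4 groups of an experiment were harvested at one time, so each group is 3 pools of plants from 1 line. In such pools fewer cells of a type and less RNA per cell cannot be told apart. A positive variety difference means that the arsenate response was more positive in Bala.

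Arsenate is a chemical analogue of phosphate and enters roots through phosphate transporters. In the cell it is reduced to arsenite, which binds thiols, is chelated by glutathione and phytochelatins, and moves through silicon transporters in rice. Bala is known as an arsenate-tolerant variety and Azucena as a sensitive one, and a tolerance locus was mapped to chromosome 6 in their cross, so that the comparison asks which transcripts respond in one variety and not in the other, or in opposite directions.

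The arsenate responses of the varieties mostly had the same direction, and few genes passed the test of the variety difference itself. Signals were analysed as log2(signal + 2.1), so that fold changes of dim probe sets are understated. Tests covered the 28461 probe sets whose mean over the arrays exceeded 9.4, and 15638 genes, each counted with its brightest probe set. By limma, with experiments as blocks and at an adjusted p of 0.05, the variety difference passed for 26 probe sets (0.0914% of those tested), 12 of them positive (0.0422%) and 14 negative (0.0492%). They held 11 genes (0.0703%), 3 positive (0.0192%) and 8 negative (0.0512%), and 14 of the 26 probe sets had no single gene in the platform annotation. The arsenate response itself passed for 1985 genes in Bala (12.7%) and for 3555 genes in Azucena (22.7%). In Bala it was positive for 6.98% of genes and 6.19% of probe sets, and in Azucena negative for 10.3% of both. At an unadjusted p below 0.05 the variety difference had 9.65% of genes and 10.4% of probe sets, with 4.74% of probe sets negative. The arsenate and control arrays did not overlap for 29.6% of probe sets in Bala and for 42.6% of probe sets and 47.2% of genes in Azucena, which is the background for statements on overlap. Median centring of the arrays moved the median variety difference of all probe sets to -0.28, against -0.03 as deposited, and then 28.2% of 71 called differences were positive, against 46.2% of 26. Without the block the variety difference passed for 58 probe sets and 23 genes.

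The responses of Bala and Azucena correlated over the 15638 genes with r = 0.742, a description across genes, which are not independent. Probe sets called in both varieties were 37.7% of those called in Azucena and 66.7% of those called in Bala. Of the probe sets called in Azucena and not in Bala (3734), 86.8% had a Bala change of the same sign, and 15 passed the test of the variety difference. Their median change in the Azucena direction was 0.49 log2 units in Bala and 1.165 in Azucena. Of the probe sets called in Bala and not in Azucena (1124), 85% had an Azucena change of the same sign and 3 passed the test of the difference. A call in one variety only was thus rarely a measured difference between varieties, and a difference that did not pass does not show equal responses. The median standard error was 0.38 log2 units for the variety difference and 0.27 for the response of one variety, and the called differences lay between 2.23 and 6.10 log2 units in size.

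**Figure D1:**
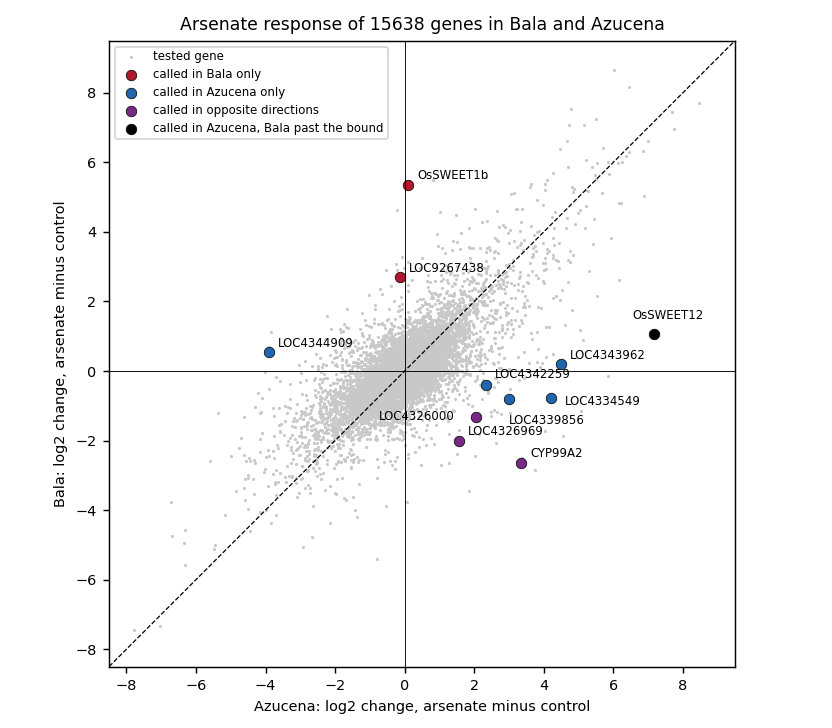
The log2 change with arsenate in Bala (vertical axis) against that in Azucena (horizontal axis) for the 15638 tested genes, with the 11 genes whose variety difference passed the test in colour and the line of equal response dashed. OsSWEET1b and LOC9267438 lie near 0 on the Azucena axis, OsSWEET12 lies farthest to the right among the coloured genes, and the 3 genes of opposite direction lie below 0 in Bala and above 0 in Azucena.

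All 26 probe sets had the same sign in all 3 experiments, as did 31.8% of all probe sets tested (16.7% negative), and the smallest difference in a single experiment was 1.80 log2 units in size. The calls rest on these same 3 differences, so that this agreement follows largely from the selection and is not independent replication. Over all probe sets the variety difference of experiment 1 correlated with that of experiment 2 at r = 0.445 and with that of experiment 3 at r = 0.0902, and experiments 2 and 3 correlated at r = 0.179. These are descriptions across probe sets. The count of calls moved with single arrays. It was 8, 18 and 11 without Bala arsenate 1, 2 and 3, and 5, 9 and 97 without Bala control 1, 2 and 3. It was 32, 7 and 74 without Azucena arsenate 1, 2 and 3, and 18, 5 and 7 without Azucena control 1, 2 and 3. Leaving out any whole experiment left 0 calls by limma, with 2114, 1461 and 4773 probe sets at an unadjusted p below 0.05 without experiments 1, 2 and 3, against 2967 with all of them.

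**Figure D2:**
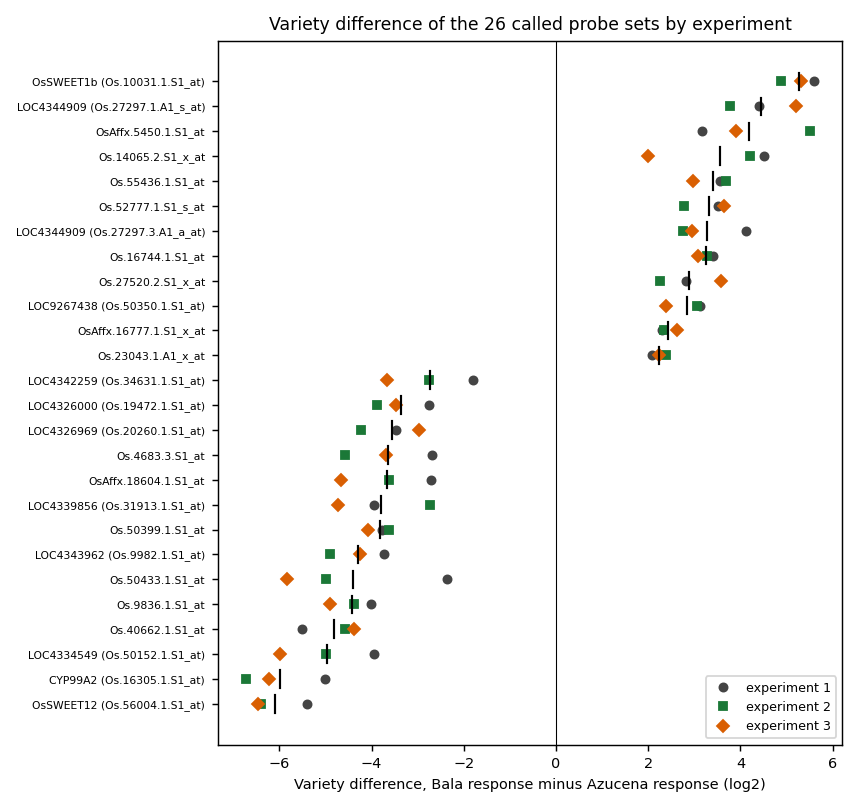
The variety difference in each of the 3 experiments (points) and over all of them (bars) for the 26 called probe sets, on a log2 scale. Every point of a probe set lies on the same side of 0, and the probe sets were selected on these same values.

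Some arrays stood apart in the signal of photosynthesis genes or in a ratio of control probe sets. The summed signal of 15 photosynthesis genes, markers of green shoot, was 767, 588 and 4624 in Bala arsenate 1, 2 and 3, and 1639, 4206 and 5095 in the Bala controls. It was 418, 460 and 279 in the Azucena arsenate roots and 655, 709 and 3125 in the Azucena controls. Bala arsenate 3 and Azucena control 3 were high for their groups, and the variety difference of the mean log2 level of these genes was -0.68, -2.41 and 2.85 in experiments 1, 2 and 3. Without those 2 arrays, a setting chosen after seeing the data, 1 of the 26 probe sets remained called, that of OsSWEET1b (adjusted p = 0.0272 by limma). The ratio of the 3' to the 5' GAPDH control probe sets, a measure of RNA integrity and labelling, lay between 3.53 and 3.78 in Bala arsenate, 1.43 and 2.17 in Bala control, 8.86 and 23.8 in Azucena arsenate, and 7.58 and 8.60 in Azucena control. The part of photosynthesis signal and of this ratio in the results was not tested. The root markers OsNIP2;1, Lsi2, OsNramp5 and OsPht1;2 averaged above the mean signal required for testing in every group. The marker OsIRT1 read below that signal in Bala controls 1 and 2 (7.2 and 3.7) and in Azucena controls 1 and 2 (9.0 and 9.1). No values were available for the root markers RCc2 and RCc3. OsNIP2;1 (Lsi1), the root silicon influx channel, averaged 2655 in Bala arsenate, 5591 in Bala control, 2374 in Azucena arsenate and 6041 in Azucena control.

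Sugar transporters of the SWEET family, which let sugars cross membranes down their gradient, gave the largest positive and the largest negative variety difference among the 11 genes that passed. OsSWEET1b, on chromosome 5, had signals of 110.1, 104.5 and 117.8 in Bala arsenate roots and 0.5, 1.0 and 0.5 in Bala control roots. It had 0.4, 1.4 and 0.7 in Azucena arsenate roots and 0.7, 0.9 and 0.3 in Azucena control roots. It was bright only on the 3 arrays of Bala with arsenate, and the other 9 arrays read below the added constant of 2.1. OsSWEET1b rose by 5.35 ± 0.18 log2 units in Bala (SE, 3 arrays per group), the Azucena change was 0.09 ± 0.18, and the variety difference was 5.26 ± 0.25 (limma adjusted p = 0.000193). It passed in all 12 fits that left out 1 array, with values between 5.16 and 5.40. Its size rests on the constant, and was 6.51 with a constant at the 5th percentile of signals and 3.55 at the 50th. Whether the probes match the Azucena sequence was not tested.

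OsSWEET12, on chromosome 3, behaved the other way round. It had signals of 7.3, 7.1 and 6.1 in Bala arsenate roots and 1.6, 2.0 and 2.9 in Bala control roots, all below the filter value of 9.4. It had 983.1, 646.9 and 419.4 in Azucena arsenate roots and 7.0, 1.3 and 0.8 in Azucena control roots. The Azucena arsenate arrays were high and all other arrays low, and within Bala the arsenate arrays lay just above the controls. OsSWEET12 rose by 7.17 ± 0.37 log2 units in Azucena, the Bala change was 1.07 ± 0.37 (adjusted p = 0.0946), and the variety difference was -6.10 ± 0.52 (adjusted p = 0.0083). The Bala change lies just past the bound of 1 log2 unit set for a response in Azucena only, so that OsSWEET12 is counted outside that class. Of 24 sugar transport and sucrose synthase genes tested, these 2 passed, 1 in each direction, against 0.0703% of all genes, with a list median of 0.15 against -0.04 over all genes. The list was chosen with earlier results of these data known, so that these counts are a description. OsSUS3, a sucrose synthase, did not pass and had a difference of 3.34 ± 0.74 (adjusted p = 0.134), with a Bala change of 3.08 ± 0.52 and an Azucena change of -0.26 ± 0.52.

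Responses in Bala only were counted for 3 probe sets, all higher with arsenate, of which 2 had a gene. Besides OsSWEET1b, this was LOC9267438 on chromosome 3, a locus with no other name in the annotation. It had 37.9, 63.6 and 31.0 in Bala arsenate roots and 2.5, 8.2 and 4.5 in Bala control roots, against 3.3, 9.0 and 5.8 in Azucena arsenate roots and 3.3, 12.3 and 6.1 in Azucena control roots. The Bala arsenate arrays lay above all 9 others. LOC9267438 rose by 2.71 ± 0.21 log2 units in Bala, with an Azucena change of -0.14 ± 0.21 and a variety difference of 2.85 ± 0.29 (adjusted p = 0.0184), kept in 7 of the 12 fits that left out 1 array. The third probe set, Os.55436.1.S1_at, had 186.9, 184.7 and 176.8 in Bala arsenate roots and 18.3, 13.2 and 23.9 in Bala control roots, and between 21 and 30.5 on the 6 Azucena arrays. Its signal with arsenate varied little between experiments, and it was measured above the filter value in both varieties. The variety difference of Os.55436.1.S1_at was 3.41 ± 0.31 (adjusted p = 0.00847), kept in 10 of the 12 fits.

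Responses in Azucena only were counted for 14 probe sets, 9 higher and 5 lower with arsenate, and in 6 of the 14 both Bala groups averaged below 9.4. The 9 higher probe sets held 4 genes, all known here by their locus only. LOC4343962, on chromosome 7, had 11.8, 10.1 and 10.1 in Bala arsenate roots and 8.8, 12.9 and 6.4 in Bala control roots. It had 570.6, 642.5 and 589.6 in Azucena arsenate roots and 31.5, 24.3 and 19.4 in Azucena control roots. The Bala groups overlapped near the filter value, and the Azucena arsenate arrays stood far above the Azucena controls. LOC4343962 rose by 4.49 ± 0.22 log2 units in Azucena, with a Bala change of 0.19 ± 0.22 and a variety difference of -4.30 ± 0.30 (adjusted p = 0.00316), and passed in all 12 fits that left out 1 array.

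LOC4334549, on chromosome 3, had 5.2, 3.7 and 7.9 in Bala arsenate roots and 10, 11.7 and 10.6 in Bala control roots. It had 192.4, 336.4 and 436.6 in Azucena arsenate roots and 18.9, 23.1 and 6.7 in Azucena control roots. The Azucena arsenate arrays stood above all others, and Azucena control 3 lay among the Bala arsenate arrays. In Bala the arsenate arrays lay below the controls with no overlap, as arrays did for 29.6% of probe sets in either direction, and the Bala change did not pass (limma adjusted p = 0.284). Its variety difference was -4.97 ± 0.62 (adjusted p = 0.0407), with 4.20 ± 0.44 in Azucena and -0.77 ± 0.44 in Bala, and the call was lost in 8 of the 12 fits that left out 1 array.

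LOC4339856 on chromosome 6 and LOC4342259 on chromosome 7 rose in Azucena and were dim in Bala. LOC4339856 had 1.4, 5.7 and 0.7 in Bala arsenate roots and 3.4, 6.0 and 6.9 in Bala control roots, against 43.0, 33.0 and 24.3 in Azucena arsenate roots and 2.5, 3.4 and 1.1 in Azucena control roots. Only the Azucena arsenate arrays were above the filter value. Its variety difference was -3.80 ± 0.48 (adjusted p = 0.0448), a call kept in 3 of the 12 fits that left out 1 array. LOC4339856 was the only called gene among 1229 tested genes of chromosome 6, where 52 positive and 50 negative differences reached an unadjusted p below 0.05. Over all genes these were 800 (5.12%) and 709 (4.53%). LOC4342259 averaged 0.70 ± 0.10 in Bala arsenate roots and 1.83 ± 1.67 in Bala control roots, and 69.8 ± 24.6 in Azucena arsenate roots and 11.6 ± 1.92 in Azucena control roots (SD, n = 3 each), with a variety difference of -2.74 ± 0.35 (adjusted p = 0.0448), kept in 2 of the 12 fits. The brightest probe set of the class, Os.9836.1.S1_at, has no single gene. It had 239.5, 287.9 and 159.3 in Bala arsenate roots, 106.8, 149.5 and 161.2 in Bala control roots, 2381.3, 1952.2 and 1784.6 in Azucena arsenate roots, and 63.9, 47.1 and 58.1 in Azucena control roots. It was measured well above the filter value in both varieties, the Bala groups overlapped, and its variety difference was -4.44 ± 0.38 (adjusted p = 0.0083).

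The 5 probe sets lower in Azucena only held 1 gene, LOC4344909 on chromosome 8. Its brightest probe set had 14.3, 13.7 and 20.6 in Bala arsenate roots and 9.4, 14.2 and 8.1 in Bala control roots, against 3.3, 2.3 and 5.1 in Azucena arsenate roots and 77.7, 59.5 and 116.4 in Azucena control roots. The Bala groups overlapped, and the Azucena arsenate arrays were the lowest of all. LOC4344909 fell in Azucena (-3.91 ± 0.28), with a Bala change of 0.54 ± 0.28 and a variety difference of 4.45 ± 0.40 (adjusted p = 0.00847), kept in 11 of the 12 fits that left out 1 array. The gene had 4 tested probe sets. A second one passed at 3.27 ± 0.38, and the other two gave 3.33 ± 0.73 (adjusted p = 0.134) and 1.43 ± 0.78 (adjusted p = 0.58). The brightest probe set can match several transcripts.

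**Figure D3:**
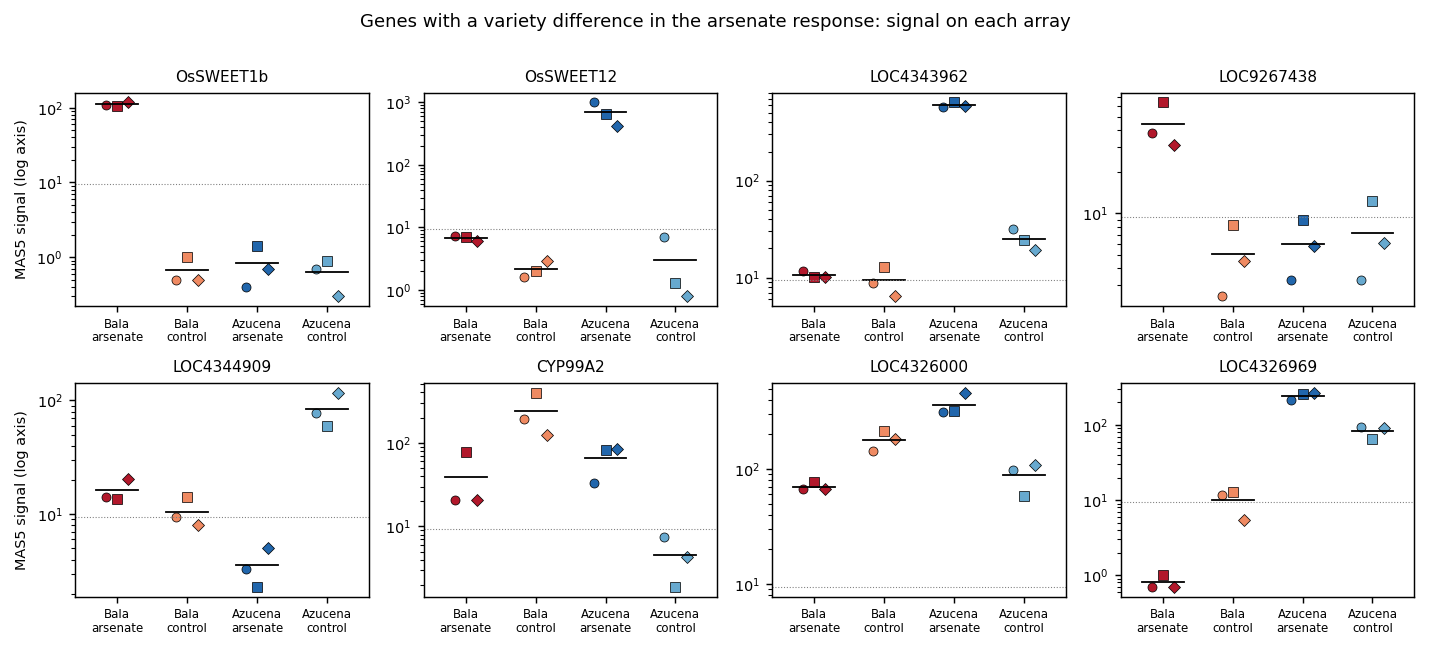
MAS5 signal on each array (log axis) for 8 genes whose variety difference passed the test, by group, with experiment 1 as circles, 2 as squares and 3 as diamonds, the group mean as a bar and the filter value of 9.4 dotted. OsSWEET1b is high in Bala arsenate roots alone and OsSWEET12 in Azucena arsenate roots alone, and CYP99A2, LOC4326000 and LOC4326969 move in opposite directions.

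Opposite responses were rare. Of 2255 probe sets called in both varieties, 2233 changed in the same direction and 22 in opposite directions (0.0773% of all probe sets tested), 9 higher in Azucena and lower in Bala and 13 the reverse. Of the 22, the variety difference itself passed for 6, which held 3 genes. CYP99A2, on chromosome 4, is a cytochrome P450 of the gene cluster that makes momilactones, diterpenoid phytoalexins of rice. It had 20.6, 76.5 and 20.8 in Bala arsenate roots and 192.0, 393.1 and 124.9 in Bala control roots, against 33.5, 81.8 and 83.8 in Azucena arsenate roots and 7.4, 1.9 and 4.3 in Azucena control roots. The Bala controls were the highest group and the Azucena controls the lowest, while the 2 arsenate groups overlapped. CYP99A2 fell in Bala (-2.63 ± 0.57) and rose by 3.35 ± 0.57 in Azucena, with a variety difference of -5.98 ± 0.81 (adjusted p = 0.0485). The call was kept in 2 of the 12 fits that left out 1 array.

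LOC4326000, on chromosome 1, was measured well above the filter value in all groups. It had 66.4, 77.3 and 67 in Bala arsenate roots and 142.9, 215.2 and 180.6 in Bala control roots, against 314.0, 319.5 and 459.0 in Azucena arsenate roots and 97.4, 57.7 and 108.2 in Azucena control roots. Neither variety's groups overlapped. Its change was -1.31 ± 0.27 in Bala and 2.05 ± 0.27 in Azucena, and the variety difference was -3.37 ± 0.38 (adjusted p = 0.0236), a call kept in 5 of the 12 fits that left out 1 array. LOC4326969, also on chromosome 1, had 0.7, 1.0 and 0.7 in Bala arsenate roots and 11.7, 12.7 and 5.5 in Bala control roots, against 213.8, 259.3 and 267.3 in Azucena arsenate roots and 94.0, 64.5 and 91.1 in Azucena control roots. Bala read low in both groups, and the variety difference was -3.56 ± 0.39 (adjusted p = 0.0236), from -1.999 ± 0.28 in Bala and 1.56 ± 0.28 in Azucena, and its call was kept in 3 of the 12 fits. Of the 22, 10 were the tested probe set of a gene (0.0639% of genes), and for the 7 genes outside the called ones the difference did not pass. Chosen after their values were seen, these were OsKO4 (-5.88), LOC4346816 (-2.56) and LOC4337483 (-1.63), higher in Azucena and lower in Bala, and LOC4332308 (1.73), LOC4327963 (1.74), LOC4327679 (2.30) and LOC4347887 (2.62), the reverse.

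The reverse direction that passed was found only in 3 probe sets without a single gene. In Os.27520.2.S1_x_at and Os.52777.1.S1_s_at both Bala groups averaged below 9.4, so that the rise in Bala rests on dim signals. Both may match several transcripts, and their calls were kept in 1 and 3 of the 12 fits that left out 1 array. OsAffx.5450.1.S1_at had 20, 60.4 and 23.6 in Bala arsenate roots and 10.6, 14.9 and 13.8 in Bala control roots, against 2.7, 3.1 and 3.1 in Azucena arsenate roots and 22.5, 62.5 and 46.1 in Azucena control roots. Arsenate arrays were higher than controls in Bala and lower than controls in Azucena, with no overlap in either. Its variety difference was 4.19 ± 0.43 (adjusted p = 0.0184), kept in 6 of the 12 fits that left out 1 array. For 2 further probe sets arsenate changed both varieties in the same direction and more in Bala. The signal of Os.16744.1.S1_at was 542.2, 616.0 and 344.2 in Bala arsenate roots and 16.5, 8.9 and 14 in Bala control roots, against 53.0, 63.9 and 39.2 in Azucena arsenate roots and 17.7, 9.2 and 14.1 in Azucena control roots. The controls of the varieties overlapped, and the change was 5.04 ± 0.30 in Bala and 1.79 ± 0.30 in Azucena. The call was kept in 1 of the 12 fits.

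Genes of diterpenoid phytoalexins, defence compounds that rice makes from geranylgeranyl diphosphate through copalyl diphosphate synthases, kaurene synthase-like enzymes and cytochrome P450s, had the lowest median variety difference of all lists. Of 12 tested genes, 1 passed (CYP99A2, negative), 10 had a negative and 1 a positive difference at an unadjusted p below 0.05, and the median was -3.39. Over all genes 0.0703% passed, 4.53% were negative and 5.12% positive at that p, and the median was -0.04. In Bala 3 of the 12 fell, with a median of -1.18, against 5.71% of all genes. In Azucena 9 of the 12 rose and 1 fell, with a median of 2.59, against 12.4% and 10.3% of all genes. The list was chosen with earlier results of these data known, and its members share RNA samples, so that these counts are a description. Members differed in how they were placed without arsenate. The median of Bala control minus Azucena control was 2.07 log2 units, and that of Bala arsenate minus Azucena arsenate was -1.46. Without Bala arsenate 3 and Azucena control 3, 7 of the 12 had a negative difference at an unadjusted p below 0.05.

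On chromosome 4, 6 protein-coding genes run from OsCPS4 to CYP99A2 in RefSeq's order, and 5 of them were tested. Gene names in this paragraph and the next, other than CYP99A2 and OsMAS, were chosen after their values were seen. OsCPS4, the syn-copalyl diphosphate synthase of the momilactone pathway, had 62.4, 14.2 and 29.1 in Bala arsenate roots and 81.0, 111.2 and 36.5 in Bala control roots, against 123.8, 375.8 and 1207.6 in Azucena arsenate roots and 9.5, 8.4 and 10.1 in Azucena control roots. Azucena arsenate 3 was the highest and the Azucena controls were the lowest. The difference of OsCPS4 was -6.24 ± 1.14, which did not pass (adjusted p = 0.091). OsMAS, the dehydrogenase that completes momilactone A, had 39.1, 19.3 and 29.3 in Bala arsenate roots and 33.7, 46.6 and 19.5 in Bala control roots, against 121.2, 421.4 and 1029.9 in Azucena arsenate roots and 15.6, 2.5 and 1.4 in Azucena control roots. The Bala groups overlapped and the Azucena groups did not, and the difference of -5.99 ± 1.18 did not pass (adjusted p = 0.111). OsDTS2, a diterpene synthase between OsMAS and CYP99A2, had a difference of -3.76 ± 0.95 (adjusted p = 0.191) and CYP99A3, the P450 next to OsCPS4, one of -2.94 ± 1.14 (adjusted p = 0.411).

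On chromosome 2, where the phytocassane pathway's genes lie, 10 protein-coding genes run from CYP76M5 to CYP76M6, and 5 were tested. OsCPS2, an ent-copalyl diphosphate synthase of phytoalexin synthesis, had 6.4, 7.2 and 1.1 in Bala arsenate roots and 29.3, 51.0 and 9.0 in Bala control roots, against 6.4, 19.3 and 42.1 in Azucena arsenate roots and 0.2, 2.3 and 1.3 in Azucena control roots. Bala controls 1 and 2 and Azucena arsenate 2 and 3 were high, and the difference of -4.69 ± 0.95 did not pass (adjusted p = 0.116). OsDTC1, a kaurene synthase-like diterpene cyclase, had a difference of -3.03 ± 0.92 and CYP71Z7, a P450, one of -3.02 ± 0.75, with adjusted p of 0.274 and 0.18. LOC4329723, between CYP76M8 and OsDTC1, had a difference of -6.45 ± 1.29 (adjusted p = 0.113). CYP76M8, whose probe set can match several transcripts, had one of -1.79 ± 0.79 (adjusted p = 0.479). Outside both runs, OsKO4 on chromosome 6, of the kaurene oxidase family, lay just outside the threshold with -5.88 ± 0.83 (adjusted p = 0.0512). OsKO4 fell in Bala with a change of -2.50 ± 0.59 and rose by 3.38 ± 0.59 in Azucena. OsKO5, of the same family and chromosome, had a difference of -1.83 ± 0.74 (adjusted p = 0.433), and the positive member of the list one of 2.18 ± 0.67 (adjusted p = 0.277). That probe set is annotated as CYP76M7 and placed on chromosome 6, away from the CYP76M genes of chromosome 2, so that its identity is uncertain.

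**Figure D4:**
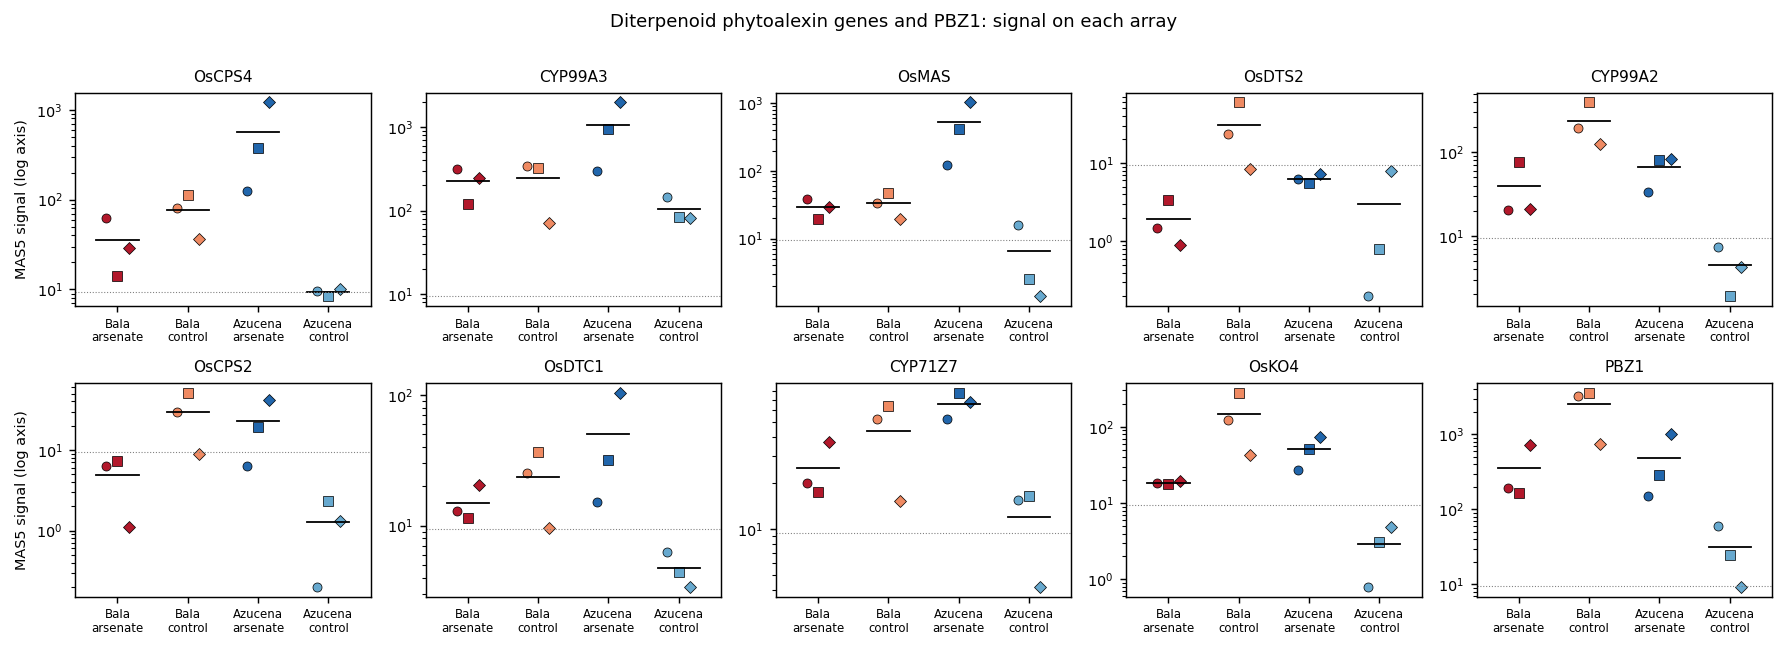
MAS5 signal on each array (log axis) for 9 diterpenoid phytoalexin genes and PBZ1, by group, with experiment 1 as circles, 2 as squares and 3 as diamonds, the group mean as a bar and the filter value of 9.4 dotted. In most panels Bala control and Azucena arsenate roots read higher than Azucena control roots. Bala control 3 lies below the other Bala controls in every panel, and in CYP99A3, OsDTC1 and CYP71Z7 it lies below all Bala arsenate arrays.

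Defence regulators and pathogenesis-related genes, which respond to pathogens and wounding, had negative medians. Of 6 WRKY factors, transcription factors of defence, none passed, 4 had a negative difference at an unadjusted p below 0.05, against 4.53% of all genes, and the median was -2.50, against -0.04 over all genes. OsWRKY76, known to repress defence genes of rice, had 21.8, 27.2 and 31.5 in Bala arsenate roots and 352.5, 276.8 and 35.3 in Bala control roots, against 22.2, 79.8 and 80.5 in Azucena arsenate roots and 23, 7.7 and 7.8 in Azucena control roots. Bala controls 1 and 2 were the highest, and Bala control 3 was close to the Bala arsenate arrays. OsWRKY76 had a difference of -4.46 ± 1.16 (adjusted p = 0.2), OsWRKY62 one of -3.76 ± 1.18, OsWRKY24 one of -2.76 ± 0.76 and OsWRKY71 one of -2.23 ± 0.68. Of 20 pathogenesis-related genes none passed, 6 had a negative and none a positive difference at an unadjusted p below 0.05, against 4.53% and 5.12% of all genes, and the median was -0.73. PBZ1, a pathogenesis-related protein of the PR-10 family, had 190.3, 164.7 and 725.9 in Bala arsenate roots and 3224.5, 3561.7 and 751.9 in Bala control roots, against 150.2, 291.9 and 1017.7 in Azucena arsenate roots and 60.7, 24.8 and 9.3 in Azucena control roots. Bala controls 1 and 2 were far above all other arrays. Its difference was -6.58 ± 1.40 (adjusted p = 0.128). The chitinases Cht1, Cht11 and Cht6, which cut fungal cell walls, had differences of -3.56 ± 1.22, -1.996 ± 0.51 and -1.79 ± 0.46, and the germin-like GLP2 had -3.28 ± 1.12.

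Jasmonate is the hormone that induces many of these genes. Of 36 jasmonate genes none passed, 8 had a negative and none a positive difference at an unadjusted p below 0.05, against 4.53% and 5.12% of all genes, and the median was -0.47, against -0.04 over all genes. JAMYB, a jasmonate-responsive MYB factor, fell in Bala (-2.61 ± 0.38), with -0.59 ± 0.38 in Azucena and a difference of -2.02 ± 0.54 (adjusted p = 0.215). CM-LOX1, a chloroplast lipoxygenase of the first step of synthesis, fell in Bala (-2.70 ± 0.49), with 0.48 ± 0.49 in Azucena and a difference of -3.18 ± 0.70. CM-LOX2, of the same family, rose in Azucena (3.96 ± 0.61), with 0.22 ± 0.61 in Bala and a difference of -3.74 ± 0.86. The repressors OsTIFY9 and OsTIFY11d, which hold jasmonate genes off, had differences of -3.94 ± 1.08 and -2.70 ± 0.74.

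Metal transporters had the most positive differences among lists of more than 20 genes, though none passed. Of 41 tested, 12 had a positive and none a negative difference at an unadjusted p below 0.05, against 5.12% positive and 4.53% negative over all genes, and the median was 0.54. The fitted difference was positive for 29 of the 41 and negative for 12, against 7202 and 8436 of all 15638 genes. In Bala 9 rose and 10 fell with arsenate, against 6.98% and 5.71% of all genes, and in Azucena 7 rose and 11 fell, against 12.4% and 10.3%. OsIRT2, which takes up ferrous iron, had 478.2, 431.8 and 297.1 in Bala arsenate roots and 12.6, 1.2 and 12.0 in Bala control roots, against 22.9, 23.1 and 20.3 in Azucena arsenate roots and 8.9, 13 and 13.1 in Azucena control roots. It was high on the 3 Bala arsenate arrays alone. OsIRT2 rose by 5.49 ± 0.49 in Bala, with 0.83 ± 0.49 in Azucena, and the difference of 4.66 ± 0.70 did not pass (adjusted p = 0.0594). OsCOPT1, a copper transporter, had 1074.9, 1461.9 and 1389.3 in Bala arsenate roots and 3542.9, 2369.7 and 4063.0 in Bala control roots, against 55.3, 61.7 and 219.7 in Azucena arsenate roots and 2180.3, 1648.0 and 3295.4 in Azucena control roots. It fell in both varieties (-1.32 ± 0.36 in Bala and -4.61 ± 0.36 in Azucena), and the difference of 3.29 ± 0.51 did not pass (adjusted p = 0.0627).

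Further members with a positive fitted difference did not pass either, and all of them but OsNramp5 were chosen after their values were seen. OsNramp5, the main manganese and cadmium uptake transporter of rice roots, had 309.3, 156.2 and 438.3 in Bala arsenate roots and 1314.2, 894.4 and 2017.3 in Bala control roots, against 58.3, 34.1 and 68.9 in Azucena arsenate roots and 726.8, 704.4 and 1070.8 in Azucena control roots. Arsenate arrays were below controls in both varieties with no overlap, and the difference was 1.67 ± 0.30 (adjusted p = 0.084). OsZIP4, a zinc transporter, rose by 1.57 ± 0.23 in Bala, with -0.12 ± 0.23 in Azucena and a difference of 1.70 ± 0.32 (adjusted p = 0.0991). Its mean signal was 117.7 in Bala arsenate and 39.3 in Bala control roots, against 202.9 in Azucena arsenate and 225.0 in Azucena control roots. osysl6, which carries manganese chelated to nicotianamine, fell in Azucena (-0.94 ± 0.21), with 0.34 ± 0.21 in Bala and a difference of 1.28 ± 0.30. OsZIP2 and NRAMP4 had differences of 1.68 ± 0.46 and 1.48 ± 0.41. Of 19 iron acquisition genes, a list that shares members with this one, none passed, 5 had a positive and none a negative difference at an unadjusted p below 0.05, against 5.12% and 4.53% of all genes, and the median was 0.56. In osysl15, which takes up iron bound to phytosiderophores, Bala control 3 read 1580.0 against 46.1 and 35.9 in the other two Bala controls, and its difference of 3.05 ± 1.21 was 5.62, 3.23 and 0.31 in experiments 1, 2 and 3.

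**Figure D5:**
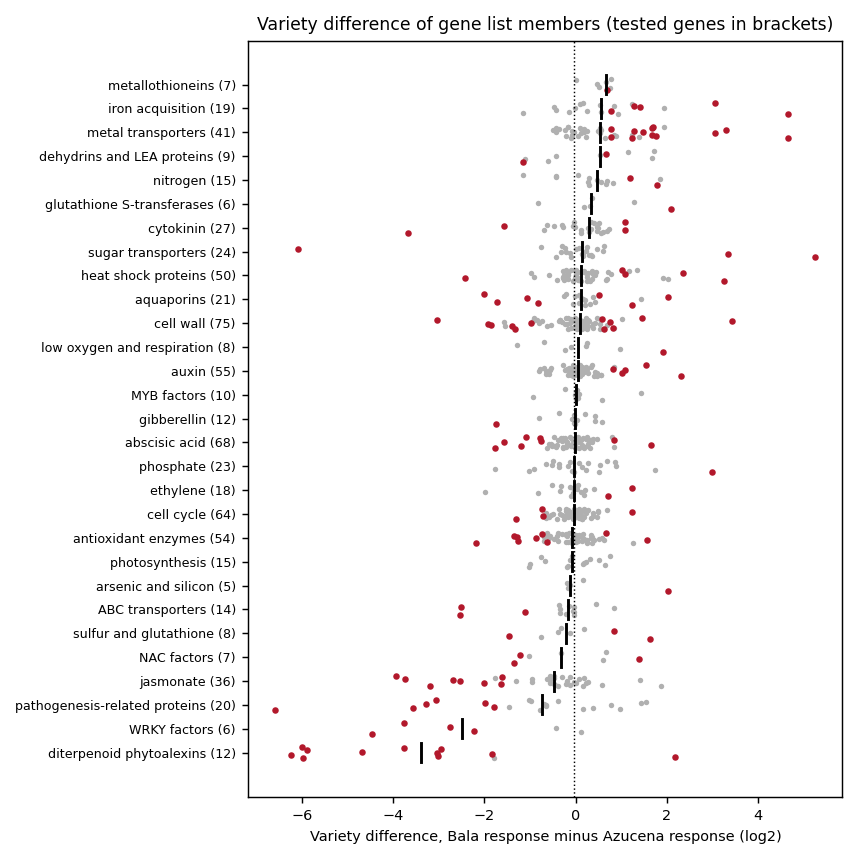
The variety difference (log2, horizontal axis) of each tested member of 29 gene lists, with members at an unadjusted p below 0.05 in red, the others in grey, the list median as a bar and the median of all genes (-0.04) as a dotted line. The diterpenoid phytoalexin, WRKY, pathogenesis-related and jasmonate lists lie lowest, and the metallothionein, iron acquisition and metal transporter lists highest.

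None of the arsenic, silicon and phosphate genes named here passed the test of the variety difference, which 0.0703% of all genes passed. OsACR2.1 and OsACR2.2, named after a yeast arsenate reductase, had differences of -0.17 ± 0.25 and -0.20 ± 0.22. OsNIP2;1, the silicon and arsenite influx channel, had 0.16 ± 0.53, and Lsi2, the efflux transporter, had -0.13 ± 0.61, with both varieties lower for Lsi2 (-3.08 ± 0.43 in Bala and -2.94 ± 0.43 in Azucena). The sign for OsNIP2;1 and Lsi2 turned with single arrays and, for OsNIP2;1, under quantile normalization and median centring. OsNIP2;2, a further channel of that family whose probe set can match several transcripts, had 2.03 ± 0.46 (adjusted p = 0.141). It fell in Azucena (-2.24 ± 0.32), with -0.21 ± 0.32 in Bala. OsNIP1;1 had a difference of -2.02 ± 0.72. Among phosphate transporters, OsPht1;8, whose probe set can match several transcripts, had -0.49 ± 0.78 (its sign turned with single arrays). OsPht1;2, which fell in both varieties, had 0.88 ± 0.61. Of 5 arsenic and silicon genes and 23 phosphate genes none passed, against 0.0703% of all genes. Their medians were -0.13 and -0.02, against -0.04 over all genes.

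No thiol or stress gene of the lists passed, against 0.0703% of all genes. The gene gcs, which encodes glutamate-cysteine ligase of glutathione synthesis, rose in both (1.24 ± 0.17 in Bala and 1.56 ± 0.17 in Azucena), with a difference of -0.32 ± 0.24. SAT4, a serine acetyltransferase that feeds cysteine synthesis, also rose in both, with a difference of -1.47 ± 0.56 (adjusted p = 0.408). The probe sets of gcs and SAT4 can match several transcripts. GST1, a glutathione S-transferase whose probe set can match several transcripts, rose in Bala (2.77 ± 0.36), with 0.69 ± 0.36 in Azucena and a difference of 2.08 ± 0.51 (adjusted p = 0.176). Its mean signal was 2105.6 in Bala arsenate and 335.6 in Bala control roots, against 3885.8 in Azucena arsenate and 2419.1 in Azucena control roots. The glutaredoxin GRXS3 rose in both (2.16 ± 0.22 in Bala and 4.35 ± 0.22 in Azucena), and its difference of -2.19 ± 0.31 lay just outside the threshold (adjusted p = 0.0512). Of 8 sulfur and glutathione genes and 6 glutathione S-transferase genes none passed, with medians of -0.22 and 0.33. The 7 metallothioneins, small metal-binding proteins, all had positive fitted differences between 0.01 and 0.77, with a median of 0.66, and none passed. Over all 15638 genes the fitted difference was positive for 7202 and negative for 8436. Of 50 heat shock genes none passed, 4 positive and 1 negative reached an unadjusted p below 0.05, against 5.12% and 4.53% of all genes, and the median was 0.13. OsHsp18.0, a small chaperone, averaged 1309.8 in Bala arsenate and 22.6 in Bala control roots. In Azucena it averaged 2118.6 in arsenate and 415.7 in control roots. OsHsp18.0 rose in both, by 5.59 ± 0.38 in Bala and 2.34 ± 0.38 in Azucena, with a difference of 3.25 ± 0.54 (adjusted p = 0.0745). OsHsp16.9B had 2.37 ± 0.75, the disaggregase CLPB1 -2.42 ± 0.81 and OsHsp18.1, which rose in both, -0.25 ± 0.84, of a sign that turned with single arrays.

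Of the other genes named by rule, none passed. RAB21, a dehydrin, had a difference of 1.72 ± 0.82, OsIRT1, the other ferrous iron transporter, 1.94 ± 0.98, OsNramp1, an iron and cadmium transporter, 0.84 ± 1.08, and OsAOX1A, the alternative oxidase, -1.28 ± 0.66, and each of them rose in both varieties. Of 15 photosynthesis genes none passed and none reached an unadjusted p below 0.05, with a median of -0.08. The other 15 lists, of hormones, water and nitrogen transport, antioxidant enzymes, cell wall, cell cycle, low oxygen, dehydrins, ABC transporters, NAC and MYB factors, held 457 tested members and 0 calls by limma. Of these, 63 (13.79%) had an unadjusted p below 0.05, against 9.65% of all genes, and the medians lay between -0.33 and 0.53. Genes near the threshold, chosen after their values were seen, included SDH7 (-1.57 ± 0.25, adjusted p = 0.0651), OsICS (3.28 ± 0.61, adjusted p = 0.0984), Os9bglu30 (4.16 ± 0.69, adjusted p = 0.0745) and PCF7 (2.52 ± 0.42, adjusted p = 0.0745). The probe set of Os9bglu30 can match several transcripts. In all, 153 probe sets and 72 genes had an adjusted p below 0.1.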

How the data were processed

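What was deposited is 1 intensity per probe set and array, a MAS5 signal on a linear scale. MAS5 comes from the submitters' processing notes, and its version is not given in the sources used here. The mean after trimming 2% at each end was 100.0 on all 12 arrays. Of 57381 probe sets, 123 controls were not tested. The platform annotation and RefSeq's gene table gave 22436 probe sets 1 gene, 95 several and 34727 none. The constant of 2.1 was the 25th percentile of signals and the filter of 9.4 the 50th.

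In R 4.3.3, limma 3.58.1 estimated the mean of each of the 4 groups with a block for each experiment. It had 6 residual and 2.85 prior degrees of freedom, and Benjamini-Hochberg adjustment ran over all tested probe sets. An experiment's groups were harvested at one time, per the series' design text, so its number pairs the arrays. Deviations from group means had a median r of 0.131 over 18 pairs of the same number and -0.0359 over 36 others.

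A response in one variety only needed the variety difference and that variety's change past the threshold, with the other variety's change not past it and under 1 log2 unit. The rule named called genes of the same sign in all 3 experiments, up to 10 in each direction, and a set of single loci. All other genes that did not pass were named after their values were seen. The members and lists were chosen with earlier results of these data known, and wrong symbol matches were taken out of lists later. Alternatives changed the block, constant, filter, normalization, variance model or arrays. The scripts were tested on simulated data. The number of arrays limits the precision.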

Additional observations from a re-analysis of the deposited data

Results flagged for a closer look

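The 26 probe sets whose arsenate response differed between Bala and Azucena by the test of the difference itself (log2, Bala minus Azucena) are given here with their values. The negative ones among genes were OsSWEET12 (-6.10), CYP99A2 (-5.98), LOC4334549 (-4.97), LOC4343962 (-4.30), LOC4339856 (-3.80), LOC4326969 (-3.56), LOC4326000 (-3.37) and LOC4342259 (-2.74). Those without a single gene were Os.40662.1.S1_at (-4.82), Os.9836.1.S1_at (-4.44), Os.50433.1.S1_at (-4.40), Os.50399.1.S1_at (-3.82), OsAffx.18604.1.S1_at (-3.67) and Os.4683.3.S1_at (-3.65). The positive ones among genes were OsSWEET1b (5.26), LOC4344909 (4.45, and 3.27 at a second probe set) and LOC9267438 (2.85). Those without a single gene were OsAffx.5450.1.S1_at (4.19), Os.14065.2.S1_x_at (3.57), Os.55436.1.S1_at (3.41), Os.52777.1.S1_s_at (3.31), Os.16744.1.S1_at (3.25), Os.27520.2.S1_x_at (2.89), OsAffx.16777.1.S1_x_at (2.42) and Os.23043.1.A1_x_at (2.23). In 21 of the 26 at least 1 group averaged below 9.4, in 9 a group averaged below the constant of 2.1, and 6 may match several transcripts. Whether probes match both varieties' sequences was not tested.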

How the results depend on the processing

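The number of probe sets with a variety difference was 26, of genes responding in Azucena only 5, in Bala only 2, in opposite directions 3 and the same way to different sizes 0. In that order of the 5 counts, the fit without the replicate block gave 58, 9, 4, 6 and 2, the 50th percentile as constant 138, 33, 12, 8 and 9, the 70th percentile as filter 56, 9, 4, 6 and 6, median centring 71, 16, 4, 6 and 4, and limma's trend 64, 8, 5, 7 and 10. The first 4 counts were 0, 0, 0 and 0 from within-experiment differences (3029 probe sets at an unadjusted p below 0.05), and 5, 2, 1 and 0 with no filter. They were 1, 0, 1 and 0 without Bala arsenate 3 and Azucena control 3, an alternative chosen after seeing the data. The constant at the 5th percentile gave 17 probe sets and 2 Azucena-only genes, and probe sets measured in both varieties gave 8, 2 and, for Bala only, 0. That last filter left OsSWEET1b and LOC9267438 untested, since both Azucena groups averaged below 9.4, so that the 0 does not test them. OsSWEET12, LOC4339856 and LOC4342259 were left untested through Bala in the same way. Quantile normalization gave 31 probe sets and limma's robust fit 20. Leaving out 1 array or 1 experiment gave 0 to 97 probe sets, 0 to 20, 0 to 9, 0 to 17 and 0 to 6 genes. It gave 7 to 11 diterpenoid phytoalexin genes (10 with all arrays) and 6 to 16 metal transporters (12 with all arrays). With the 70th percentile filter the diterpenoid count was 5, but that filter also took dim members such as OsCPS2 out of the test. The causes were not tested. Of 2467 values of 93 named genes and probe sets under 27 alternatives, 17 had the other sign, all in 4 genes that did not pass. OsNIP2;1 turned to -0.0083 under quantile normalization and to -0.0852 under median centring. Over the fits without single arrays or experiments, OsNIP2;1 ranged between -0.2024 and 0.6054, OsPht1;8 between -1.2609 and 0.16, OsHsp18.1 between -1.1254 and 0.3115, and Lsi2 between -0.6954 and 0.4609. Each of the 26 calls was lost in at least 1 alternative. OsSWEET1b, OsSWEET12, LOC4343962 and Os.9836.1.S1_at kept theirs in all 12 fits that left out 1 array.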
